A study of Mus musculus with 12 samples.

Results

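The comparison covered 6 of the 12 liver arrays of the series, those of 3 Atf6a-/- mice and 3 wild-type mice that received vehicle and no tunicamycin (TM), and asks what the liver lacks when ATF6a is absent and no stress is applied. The arrays were chosen by their titles, and each held the liver RNA of 1 mouse on an Affymetrix whole-genome mouse array. Vehicle was 150 mM dextrose given into the peritoneum, and livers were taken 34 h later (the source field of the labels says 8 h, whereas titles and protocol say 34 h). The remaining 6 arrays came from mice of both genotypes given 1 mg/kg TM in the same vehicle. Mice were of mixed age and of either sex, with neither given per animal, no strain is stated in the labels, and all had been fasted briefly before being killed in daytime. The labels give the genotype as -/- or +/+ with no tissue-specific driver, and the RNA came from whole liver homogenate. The labels do not say what was removed from Atf6.

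ATF6a is made as a membrane protein of the endoplasmic reticulum (ER). When unfolded proteins gather in the ER lumen it moves to the Golgi, where the site-1 and site-2 proteases release its cytosolic portion, a bZIP transcription factor that enters the nucleus and joins NF-Y at the ER stress response element of chaperone genes. IRE1, which splices Xbp1 mRNA, and PERK, which slows translation and raises ATF4 and CHOP, are the other sensors of this unfolded protein response. Hepatocytes secrete most plasma proteins and make lipoproteins and cholesterol, so their ER carries a large load even without a drug. The site-1 and site-2 proteases also cleave the SREBP factors, which drive the genes of cholesterol synthesis.

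The ER stress response element is shown first because it is the element at which ATF6a is known to act with NF-Y. A match of its letters in a promoter does not by itself make a gene a known target of ATF6a. The blocks CCAAT and CCACG with 9 free bases between them were searched on both strands of the RefSeq promoter windows of GRCm38.p6, from 250 bases before to 50 after each gene's start. The element was present in 39 of 32851 windows (0.119%), and 20 measured genes had such a window, 10 of them in the ER gene lists. Only exact matches of these letters were counted, so near matches in a promoter stay in lower case. The promoter of Hspa5, which encodes the ER chaperone BiP, is printed below with the exact match in capitals (chr2:34771840-34772089, plus strand).
Hspa5 promoter: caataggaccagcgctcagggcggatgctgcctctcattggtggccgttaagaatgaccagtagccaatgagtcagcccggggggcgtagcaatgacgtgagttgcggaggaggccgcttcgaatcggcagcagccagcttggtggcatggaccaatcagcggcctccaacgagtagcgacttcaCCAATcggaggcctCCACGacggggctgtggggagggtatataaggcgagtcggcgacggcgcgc

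The elements of 6 further genes with that letter pattern are set out, 1 for each gene, with 10 bases on either side (a further one in the Hsp90b1 window is not printed), read on the strand that carries the letters, to show that the spacer between both capital blocks differs from gene to gene. Hsp90b1 (GRP94), Calr and Canx encode chaperones, Pdia6 a disulfide isomerase, Dnajc3 the cochaperone p58IPK and Derl3 a component of ER-associated degradation.
Hsp90b1, chr10:86705523-86705561, plus strand: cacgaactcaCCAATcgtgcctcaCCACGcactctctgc
Calr, chr8:84847065-84847103, plus strand: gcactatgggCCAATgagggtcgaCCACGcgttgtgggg
Canx, chr11:50325790-50325828, minus strand: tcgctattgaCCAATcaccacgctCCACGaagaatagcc
Pdia6, chr12:17266481-17266519, plus strand: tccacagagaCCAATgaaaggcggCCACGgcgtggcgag
Dnajc3, chr14:118937817-118937855, plus strand: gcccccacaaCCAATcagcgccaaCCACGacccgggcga
Derl3, chr10:75893232-75893270, minus strand: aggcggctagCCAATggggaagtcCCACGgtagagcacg

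Levels are given as log2 RMA values per animal in the order of the animal numbers, and differences as the Atf6a-/- mean minus the wild-type mean on the log2 scale ± SE from limma, with 3 mice per group. A gene is represented by its brightest probe set. RMA levels differ between probe sets for reasons other than RNA amount, so levels are compared between animals and not between genes. In RNA of whole liver, fewer cells of a type and less RNA per cell cannot be told apart.

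Pairs of vehicle arrays correlated between 0.984 and 0.995 over all probe sets, and the 9 measured hepatocyte markers, albumin and transthyretin among them, differed by -0.07 to 0.07 between genotypes (log2). Within that narrow range Atf6a-/- animal 3 was the lowest of the 6 livers in 8 of the 9 markers. It was also the lowest in 17 of 20 urea cycle and amino acid genes, 13 of 21 drug-metabolising enzymes, 10 of 19 apolipoprotein genes and 18 of 30 proteasome subunits, while Atf6a-/- animal 1 was the highest in 19 of the 20 urea cycle and amino acid genes. The array of wild-type vehicle animal 2 stood apart in another way, with transcripts of skeletal muscle. Acta1, the actin of skeletal muscle, had log2 levels of 4.89, 13.21 and 6.26 in the wild-type and of 4.97, 4.57 and 5.08 in the Atf6a-/- vehicle livers. Over the 7 measured adipose and skeletal muscle markers the mean level ran from 4.10 to 9.30 in wild-type and from 4.04 to 4.17 in Atf6a-/- livers, and animal 2 was the highest in 6 of the 7. TM arrays held such transcripts as well, with Acta1 at 5.82, 9.46 and 4.89 in wild-type and at 9.07, 5.16 and 10.56 in the arrays labelled Atf6a-/- TM. Several results are therefore given with and without the wild-type animal 2 array.

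Both sexes were present and were balanced between the vehicle groups. Xist, transcribed from the inactive X chromosome, had log2 levels of 12.19, 6.14 and 5.43 in wild-type and of 12.39, 6.29 and 5.74 in Atf6a-/- livers, and Uty, a Y-linked gene, was low in the same 2 animals (2.51 and 3.09, against 5.10 to 5.46 in the others). Animal 1 of either vehicle group thus had the female pattern. Cyp2b9, a cytochrome P450 known to be higher in female liver, followed, at 12.20, 5.83 and 4.64 in the wild-type group and at 12.42, 5.51 and 4.14 in the Atf6a-/- group. Hsd3b5, a male-specific steroid dehydrogenase, had the opposite pattern at 3.78, 11.39 and 11.91, and at 4.45, 11.82 and 11.98. Xist, Cyp2b9 and Hsd3b5 were among the 6 genes with the widest spread within the vehicle groups at a mean of at least 7. The differences between genotypes (-0.20 ± 2.33 for Cyp2b9 and 0.39 ± 2.12 for Hsd3b5) were small against that spread. The TM groups were not balanced, with Xist at 6.68, 5.61 and 5.56 in wild-type and at 12.29, 6.37 and 5.37 in the arrays labelled Atf6a-/- TM, so that animal 1 of the latter alone had the female pattern.

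**Figure D1:**
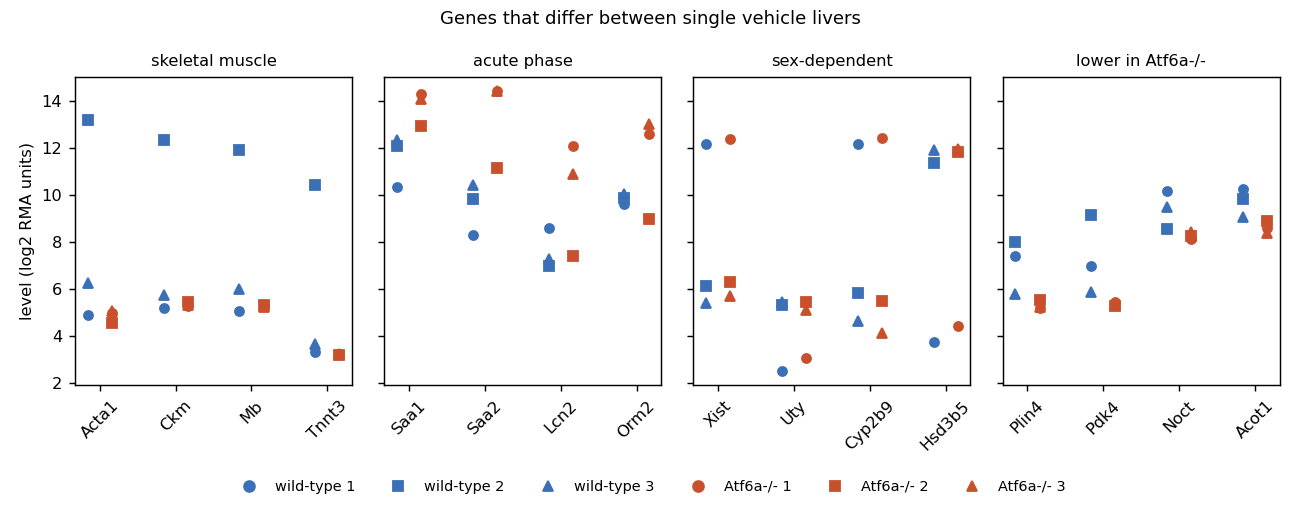
Log2 level (vertical axis) in each of the 6 vehicle livers of 4 skeletal muscle genes, 4 acute-phase genes, 4 sex-dependent genes and 4 genes that were lower in Atf6a-/- livers, with a symbol per animal number. Muscle genes were high in wild-type animal 2 alone (Acta1 at 13.21), the female pattern of Xist belonged to animal 1 of either genotype, and Saa2 reached 14.42 and 14.43 in Atf6a-/- animals 1 and 3.

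Atf6 was the one probe set of 45037 (0.00222%), and the one gene of 18193 (0.0055%), that passed the test between the genotypes, at an adjusted p under 0.05 and over 1.5-fold. The log2 levels of its brightest probe set were 8.54, 8.42 and 8.49 in wild-type livers. They were 6.88, 6.85 and 6.60 in Atf6a-/- livers. The groups did not overlap, and the difference of -1.71 ± 0.15 was a 3.26-fold lower signal (95% interval -2.04 to -1.37, limma adjusted p = 0.00611). The remaining signal was well above the array median, which ran from 4.64 to 4.71 over the 12 arrays. Both dimmer Atf6 probe sets were lower as well, by -0.70 ± 0.11 and -0.55 ± 0.14, with no overlap of the groups and adjusted p of 0.770 and 1.00 in limma. The labels of the vehicle arrays were thus borne out by all 3 probe sets, although none shows whether it lies within the deleted part. After TM the brightest probe set differed by 0.04 ± 0.15 and the dimmest was 1.43 higher in Atf6a-/- mice (adjusted p = 3.03e-05), so that Atf6 does not check the labels of the TM arrays. The 5 genes that the study names as dependent on ATF6a were all lower in the arrays labelled Atf6a-/- TM. Pdia4 differed by -1.96, Derl3 by -1.72, Dnajb11 by -1.55, Hsp90b1 by -0.43 and, with overlap, Dnajc3 by -0.33. Hspa5, which is not one of the 5, differed by 0.14. The study names the 5 partly from these same arrays, so they are no independent check of those labels.

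**Figure D2:**
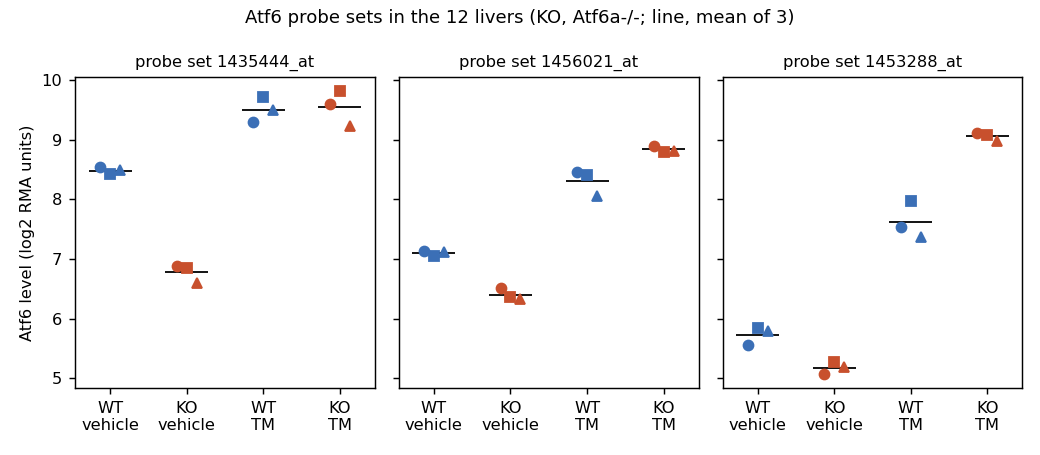
Log2 level (vertical axis) of the 3 Atf6 probe sets in each of the 12 livers by group, with a symbol per animal number and a line at the mean of 3. All 3 probe sets were lower in Atf6a-/- than in wild-type vehicle livers (8.48 against 6.78 for the brightest), whereas after TM none was lower.

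No other sensor of the unfolded protein response or ER-membrane factor passed the test. Atf6b, which encodes the related factor ATF6b, had log2 levels of 5.94, 5.64 and 5.94 in wild-type and of 6.60, 6.17 and 6.21 in Atf6a-/- livers. All 3 Atf6a-/- values were above the wild-type range, a difference of 0.49 ± 0.18 that did not pass the adjusted test (95% interval 0.09 to 0.88, limma unadjusted p = 0.0195, adjusted p = 1.00). The sensors Ern1 (IRE1) and Eif2ak3 (PERK) differed by 0.08 ± 0.29 and -0.07 ± 0.31. The proteases that cleave ATF6a, Mbtps1 and Mbtps2, differed by -0.01 ± 0.09 and 0.02 ± 0.17. Xbp1 had levels of 11.12, 11.72 and 11.82 in wild-type and of 11.97, 11.78 and 11.55 in Atf6a-/- livers, which overlap; a probe set does not tell its spliced from its unspliced form. Ddit3, which encodes CHOP, was at 7.03, 6.91 and 6.89 in wild-type and at 6.41, 6.46 and 6.49 in Atf6a-/- livers. The Ddit3 groups were apart with little spread, but the fit uses the spread of all 4 groups, and Ddit3 varied from 9.81 to 13.04 after TM, so its difference of -0.49 ± 0.54 carries a wide interval (-1.67 to 0.68).

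The 5 genes that the study names as dependent on ATF6a did not differ between the genotypes beyond the spread (0 of 5 at an unadjusted p under 0.05). The study names them as targets of ATF6a known from earlier work, and also as examples of what differed after TM on these arrays. Hspa5, which is not one of the 5, had log2 levels of 12.37, 12.32 and 12.52 in wild-type and of 12.62, 12.45 and 11.95 in Atf6a-/- livers. Pdia4, a disulfide isomerase, was at 9.35, 9.27 and 9.28 and at 9.35, 9.24 and 9.23, a difference of -0.02 ± 0.15 (95% interval -0.35 to 0.30). Dnajb11, a cochaperone of BiP, was at 9.14, 9.40 and 9.44 and at 9.27, 9.41 and 9.26, a difference of -0.01 ± 0.17 (-0.37 to 0.35). Each of these intervals lies within 1.5-fold either way. Hsp90b1 differed by -0.02 ± 0.16 and Dnajc3 by -0.03 ± 0.19. Derl3 differed by 0.13 ± 0.28, with an interval of -0.49 to 0.75 that reaches past 1.5-fold, because Atf6a-/- animal 1 was at 7.49 and the other 5 livers were between 6.19 and 6.70.

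Pdia4, Dnajb11 and Derl3 were far apart after TM, in other mice. The genotype difference of Pdia4 was -1.96 ± 0.15, that of Dnajb11 -1.55 ± 0.17 and that of Derl3 -1.72 ± 0.28, and for each the change of the genotype difference with treatment passed the interaction test (-1.94, -1.54 and -1.85, limma adjusted p = 0.000186, 0.00151 and 0.0115). For Hsp90b1 and Dnajc3 it did not (adjusted p = 0.332 and 0.61). In vehicle livers the median difference of the 5 genes was -0.02, beside 0.00 over all 18193 genes.

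Genes whose promoter holds the element showed no shared shift. They are not the same as known ATF6a targets, and Pdia4 and Dnajb11 were not among them. Of the 20 genes, 0 had an unadjusted p under 0.05 in limma, beside 2.74% of all genes, and in none were the genotypes apart, beside 8.09% of all genes. Their differences ran from -0.32 to 0.26 with a median of 0.01, and in 14 of the 20 the 95% interval lay within 1.5-fold. With the last base of the letters left free, the pattern was in 0.365% of windows and in 64 measured genes, none of which had an unadjusted p under 0.05. Their median difference was -0.02.

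**Figure D3:**
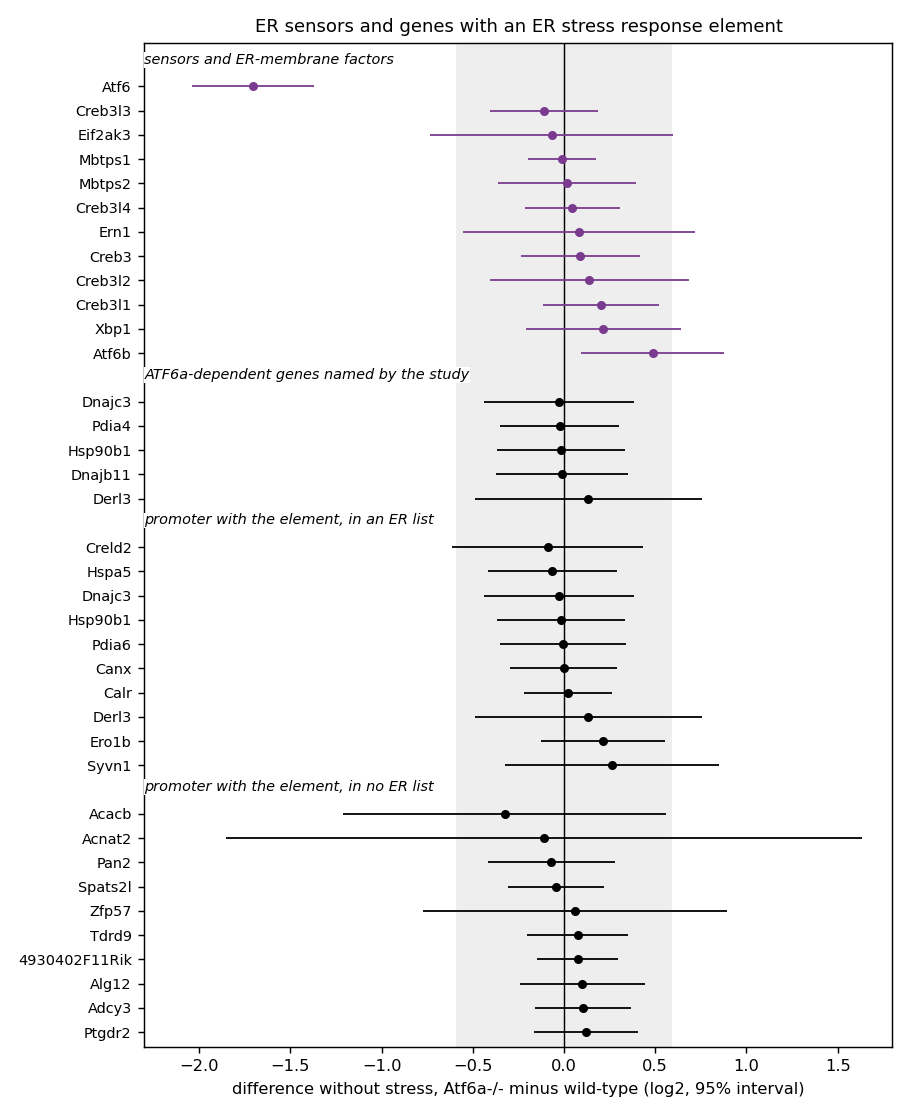
Difference between Atf6a-/- and wild-type vehicle livers (horizontal axis, log2, points with 95% intervals from limma) for the ER stress sensors and ER-membrane factors, the 5 ATF6a-dependent genes and the 20 genes with the element in their promoter, some of which appear in both of the last sets. The grey band marks 1.5-fold either way; Atf6 lies outside it at -1.71 and every other point lies within it.

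Taking the 6 ER lists together without Atf6, 130 genes were measured. None passed the adjusted test, and 9 had an unadjusted p under 0.05, all higher in Atf6a-/- livers (6.92%, beside 1.46% of all genes that were higher by this rule). Among them Hspa13, an ATPase of the ER lumen, had log2 levels of 7.58, 8.20 and 8.18 in wild-type and of 8.95, 8.92 and 8.28 in Atf6a-/- livers, a difference of 0.73 ± 0.21 (limma unadjusted p = 0.00475, adjusted p = 1.00). Srprb, a subunit of the signal recognition particle receptor, differed by 0.61 ± 0.21, Ostc, a subunit of the oligosaccharyltransferase, by 0.46 ± 0.17, and Manf, a secreted ER stress factor, by 0.43 ± 0.17. These small differences moved with single mice, and wild-type animal 1 was the lowest of the 6 in 8 of the 9 genes. Without that animal 2 genes of the 130 had an unadjusted p under 0.05 and the median difference was 0.02, against 0.07 with it. Hspa13 then differed by 0.53 ± 0.20 and Srprb by 0.48 ± 0.23. The count of higher genes was 4 without Atf6a-/- animal 2, 15 without wild-type animal 3 and 13 without Atf6a-/- animal 3. Asns, asparagine synthetase, a target of ATF4, had levels of 5.15, 6.44 and 7.60 in wild-type and of 6.70, 8.27 and 8.68 in Atf6a-/- livers. The Asns groups overlapped, with a wide spread within each genotype, around a difference of 1.49 ± 0.59.

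The transcription factors that direct hepatic metabolism did not pass the test in the absence of TM. Ppara, the receptor that drives fatty acid oxidation, was at 11.14, 11.31 and 11.52 in wild-type and at 11.14, 11.30 and 11.10 in Atf6a-/- livers (log2). Its difference was -0.15 ± 0.18, that of Cebpa -0.06 ± 0.23 and that of Ppargc1a, a coactivator of gluconeogenic genes, -0.29 ± 0.41. Hnf4a was slightly lower in every Atf6a-/- liver, with 12.47, 12.50 and 12.60 against 12.27, 12.45 and 12.11, a difference of -0.25 ± 0.16 that did not pass the test (95% interval -0.60 to 0.10). After TM the genotype differences of Ppara, Cebpa and Ppargc1a were -3.85, -2.22 and -4.21, and their interaction passed the test (adjusted p = 7.81e-06, 0.00161 and 0.00122).

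The comparison was precise enough to bound most genes, but fewer of those in some lists. In 82.3% of the 18193 genes the 95% interval of the difference lay within 1.5-fold either way. The interval reached a median of 0.30 to either side on the log2 scale, a factor of 1.23. The share within 1.5-fold was 92.8% for the 6982 genes with a mean vehicle level under 5. It was 76.8% at 5 to 7, 75.9% at 7 to 9 and 73.8% at 9 and over. Levels under 5 lie near or below the array median (4.64 to 4.71), where a narrow interval need not bound the RNA. The share was 61.5% in the 6 ER lists without Atf6. Within these it was 20.8% for the PERK, ATF4 and CHOP targets. For cholesterol synthesis and uptake it was 0.0%. In 2.74% of genes (499) and 2.85% of probe sets (1285) the unadjusted p was under 0.05, 266 higher and 233 lower. Differences over 1.5-fold were seen in 205 genes (1.13%), 57 higher (0.313%) and 148 lower (0.813%). Without wild-type animal 2, whose muscle transcripts are among the lower genes, 74 were higher and 79 lower. Between the genotypes after TM, 3586 genes (19.7%) passed the adjusted test.

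The widest shift of any hepatocyte list was in cholesterol synthesis. Of 17 measured members of 21 listed, all 17 differences were above 0 and 11 had an unadjusted p under 0.05 in limma (64.7%, beside 1.46% of all genes in that direction). In 9 of the 17 the genotypes were apart (52.9%, beside 4.18%). None passed the adjusted test (adjusted p = 1.00). The median difference of the list was 0.73, beside 0.00 over all genes. The list was chosen with earlier results of these data known, and its members are known to be regulated together, so they are not separate observations.

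Squalene epoxidase (Sqle), which makes the first oxygenated sterol precursor, had log2 levels of 7.32, 9.10 and 9.41 in wild-type and of 10.66, 9.86 and 9.92 in Atf6a-/- livers. All 3 Atf6a-/- values were above the wild-type range, with a difference of 1.54 ± 0.58 (limma unadjusted p = 0.0214). Hmgcs1, which makes HMG-CoA, was at 10.11, 10.83 and 11.38 and at 12.31, 11.45 and 11.39, with a difference of 0.94 ± 0.31. Cyp51, the lanosterol demethylase, was at 8.26, 9.38 and 9.71 and at 10.42, 9.91 and 9.79, with a difference of 0.93 ± 0.31. In all 3 genes wild-type animal 1 was the lowest and Atf6a-/- animal 1 the highest of the 6. Stard4, a sterol carrier, was steadier at 8.91, 9.28 and 9.52 and at 9.88, 9.93 and 9.89 (0.66 ± 0.18). Srebf2, which encodes the SREBP2 factor itself, was at 8.11, 7.88 and 7.89 and at 8.54, 8.30 and 8.33 (0.43 ± 0.14). Insig1, which retains that factor in the ER, differed by 0.64 ± 0.18. Msmo1, a sterol C4 oxidase that is not in the list, was at 8.89, 10.31 and 10.75 and at 11.80, 11.22 and 11.26, with a difference of 1.44 ± 0.36 (limma unadjusted p = 0.00175).

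Both animals with the female pattern stood at the ends of this range. Wild-type animal 1 was the lowest of the 6 livers in 14 of the 17 genes and Atf6a-/- animal 1 the highest in 16. Without wild-type animal 1 the median difference of the cholesterol list was 0.50 with 6 of 17 genes at an unadjusted p under 0.05, and without Atf6a-/- animal 1 it was 0.55 with 5. Without both it was 0.31 with 2, and 14 of the 17 differences remained above 0. With the Xist level as a covariate the median was 0.72 with 11 of 17, on all 12 arrays and on the vehicle arrays only. Xist differed by only 0.22 ± 2.19 between the vehicle groups, so this covariate could hardly move the median. It does not test why both animals of the female pattern stood at opposite ends. Leaving out wild-type animal 2, the array with muscle transcripts, gave a median of 0.75 with 10 of 17.

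**Figure D4:**
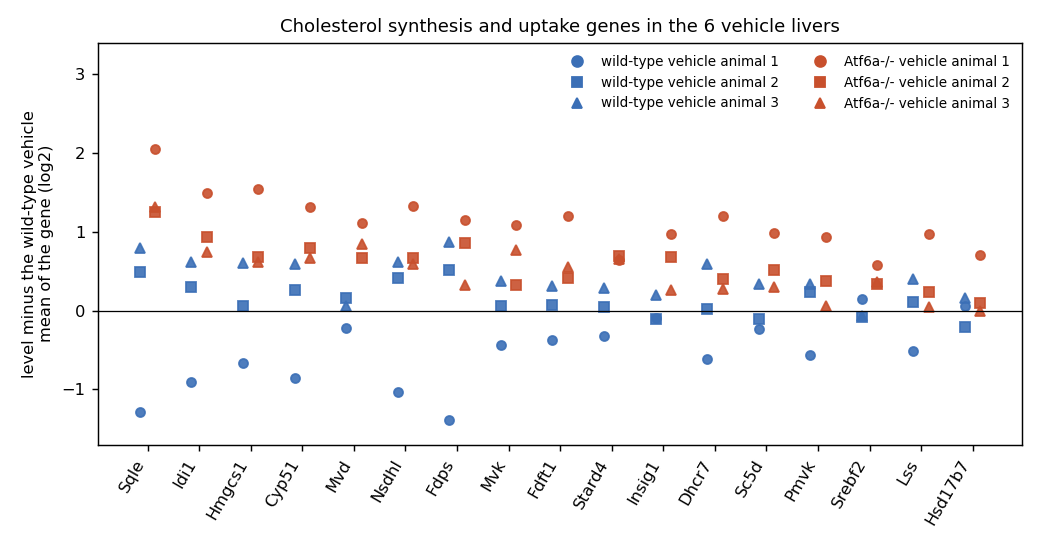
Log2 level of the 17 measured cholesterol synthesis and uptake genes in the 6 vehicle livers, as the distance from the wild-type vehicle mean of each gene (vertical axis), ordered by the genotype difference, with a symbol per animal number. Atf6a-/- animal 1 was the highest in 16 genes and wild-type animal 1 the lowest in 14, while animals 2 and 3 of the genotypes lay nearer to each other.

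Among the acute-phase genes, which the liver makes in inflammation, Saa1 and Saa2 were above the wild-type range in all 3 Atf6a-/- mice, and Lcn2 and Orm2 in animals 1 and 3. Saa2, serum amyloid A2, had log2 levels of 8.32, 9.85 and 10.43 in wild-type and of 14.42, 11.17 and 14.43 in Atf6a-/- livers. Its difference was the largest above 0 of any gene, 3.81 ± 0.99 with no overlap of the groups (13.98-fold, 95% interval 1.64 to 5.97, limma unadjusted p = 0.00246, adjusted p = 1.00). Saa1 followed at 10.35, 12.10 and 12.34 and at 14.32, 12.96 and 14.09 (2.19 ± 0.73). Saa1 and Saa2 are near-identical copies whose probe sets may share signal. Lcn2, lipocalin-2, an iron-scavenging protein, was at 8.61, 7.01 and 7.27 and at 12.11, 7.41 and 10.92, so that Atf6a-/- animal 2 lay within the wild-type range. Orm2, an orosomucoid, was at 9.61, 9.87 and 10.04 and at 12.61, 8.99 and 13.03, with Atf6a-/- animal 2 below all wild-type livers.

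Of the 22 acute-phase genes 5 had an unadjusted p under 0.05, all higher (22.7%, beside 1.46%), and the median difference was 0.26. In 3 of the 22 the genotypes were apart, all higher (13.6%, beside 4.18%). Atf6a-/- animal 1 was the highest of the 6 in 15 of the 22, whereas animal 3 was the highest in 3 and the lowest in 5. Abundant members showed small differences, of -0.02 ± 0.22 for Fga, 0.19 ± 0.26 for Hp (haptoglobin) and -0.22 ± 0.15 for Hamp (hepcidin). The Hp groups were apart, at 13.95, 14.03 and 14.14 in wild-type and at 14.34, 14.15 and 14.20 in Atf6a-/- livers. Its SE takes in the wider spread after TM. Without Atf6a-/- animal 1 the median of the list was 0.10 with 2 genes higher and 1 lower at an unadjusted p under 0.05, and without animal 3 it was 0.25 with 2 higher. Leaving out wild-type animal 2 gave a median of 0.16 with 3 higher. Markers of Kupffer cells, the macrophages of the liver, had a median difference of 0.19 over 14 genes, 12 of them above 0, and were highest in Atf6a-/- animal 1 in 7 of the 14. Their mean level ran from 8.01 to 8.20 in wild-type and from 7.98 to 8.44 in Atf6a-/- livers, and their part in the acute-phase values was not tested. Neutrophil markers were at 4.83 to 5.04 and at 4.76 to 4.93.

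Genes of fatty acid oxidation had small differences on 1 side. All 21 measured members had differences below 0, from -1.09 to -0.01 with a median of -0.20, and in 8 the genotypes were apart (38.1%, beside 3.91% of all genes that were lower by this rule). Acot1 and Pex11a had an unadjusted p under 0.05 (2 of 21, beside 1.28% of all genes in that direction), and none passed the adjusted test. Hadha, a subunit of the mitochondrial trifunctional protein, shows the size of the shift with log2 levels of 11.51, 11.52 and 11.56 in wild-type and of 11.35, 11.38 and 11.35 in Atf6a-/- livers (-0.17 ± 0.10). Atf6a-/- animal 3 was the lowest of the 6 in 17 of the 21 genes, as in the other hepatocyte lists named above, and the part of that array in the result was not tested beyond leaving it out. Without it the median was -0.15 with 4 differences above 0, and without wild-type animal 1 or 3 it was -0.15 or -0.17 with 2 above 0. Pex11a, a peroxisome membrane protein, was at 10.87, 10.77 and 10.51 and at 9.94, 10.46 and 10.31 (-0.48 ± 0.17). Acot1, an acyl-CoA thioesterase induced by fasting, was at 10.28, 9.84 and 9.09 and at 8.61, 8.92 and 8.40 (-1.09 ± 0.50).

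The lists of glucose and glycogen metabolism and of fatty acid and triglyceride synthesis had medians of -0.02 (7 of 17 above 0) and -0.11 (9 of 24 above 0). Single genes had lower values in Atf6a-/- livers, none of which passed the adjusted test. Plin4, a lipid droplet protein, had log2 levels of 7.43, 8.01 and 5.79 in wild-type and of 5.20, 5.54 and 5.24 in Atf6a-/- livers, with a difference of -1.75 ± 0.40 (3.36-fold lower, limma unadjusted p = 0.00100, adjusted p = 1.00). Pdk4, the kinase that shuts off pyruvate dehydrogenase, was at 6.99, 9.16 and 5.90 and at 5.48, 5.27 and 5.38 (-1.97 ± 0.79). For both genes the Atf6a-/- livers lay within a narrow range while the wild-type livers were spread, and the highest value belonged to wild-type animal 2, which held muscle transcripts. Without that animal the difference of Plin4 was -1.28 ± 0.35 and that of Pdk4 -1.07 ± 0.68 (limma unadjusted p = 0.00365 and 0.145). Desmin (Des), a stellate cell marker that muscle shares, went from -0.95 ± 0.61 to 0.03 ± 0.23. Noct (nocturnin), a gene of rhythmic expression, was at 10.20, 8.58 and 9.48 and at 8.12, 8.26 and 8.44. Without wild-type animal 2 its difference went from -1.15 ± 0.34 to -1.57 ± 0.28. Ppp1r3b, the hepatic glycogen-targeting subunit of protein phosphatase 1, was at 10.89, 9.79 and 10.50 and at 9.80, 9.33 and 8.98. Its difference was -1.03 ± 0.35, and -1.33 ± 0.35 without wild-type animal 2. The clock genes as a list did not shift, with a median of 0.05 over 17 members and none at an unadjusted p under 0.05. Bag3, a cochaperone of Hsp70, differed by -0.73 ± 0.26.

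Further genes were among those with the lowest p-values. Col5a2, a collagen chain, was at 6.55, 6.31 and 6.13 in wild-type and at 5.25, 5.18 and 5.32 in Atf6a-/- livers (log2), a difference of -1.08 ± 0.17 (limma unadjusted p = 5.13e-05, adjusted p = 0.770). Wfdc2, a secreted protease inhibitor, was at 8.51, 8.08 and 7.41 and at 6.88, 7.08 and 7.06 (-0.99 ± 0.21). The zinc finger genes Zfp467 and Zfp39 were higher by 0.85 ± 0.18 and 0.73 ± 0.16 with no overlap. Fam81a differed by 0.62 ± 0.11, Spry2 by 0.40 ± 0.09 and Aatk by -0.52 ± 0.12. Both group means of Col5a2, Zfp39, Fam81a, Spry2 and Aatk were under 7. None of these genes, nor Wfdc2 or Zfp467, passed the adjusted test. When each array was left out in turn, Plin4 and Wfdc2 passed it only without wild-type animal 3. Their differences were then -2.39 and -1.29 (limma adjusted p = 0.00122 and 0.0443). That animal was the lowest wild-type liver for both genes, so leaving it out widens the difference and narrows the spread. The adjusted p does not account for the choice of array, and these calls are not taken as results. Without Atf6a-/- animal 1, of the female pattern, Cyp2b10, a P450 induced through the receptor CAR, passed it. Wild-type livers had Cyp2b10 at 9.46, 9.08 and 9.04 (log2) and Atf6a-/- livers at 10.58, 7.86 and 7.57. The difference was -0.52 ± 0.58 with all 6 mice and -1.48 ± 0.17 without that one (limma adjusted p = 0.0452). The animal left out was again the one that went the other way.

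**Figure D5:**
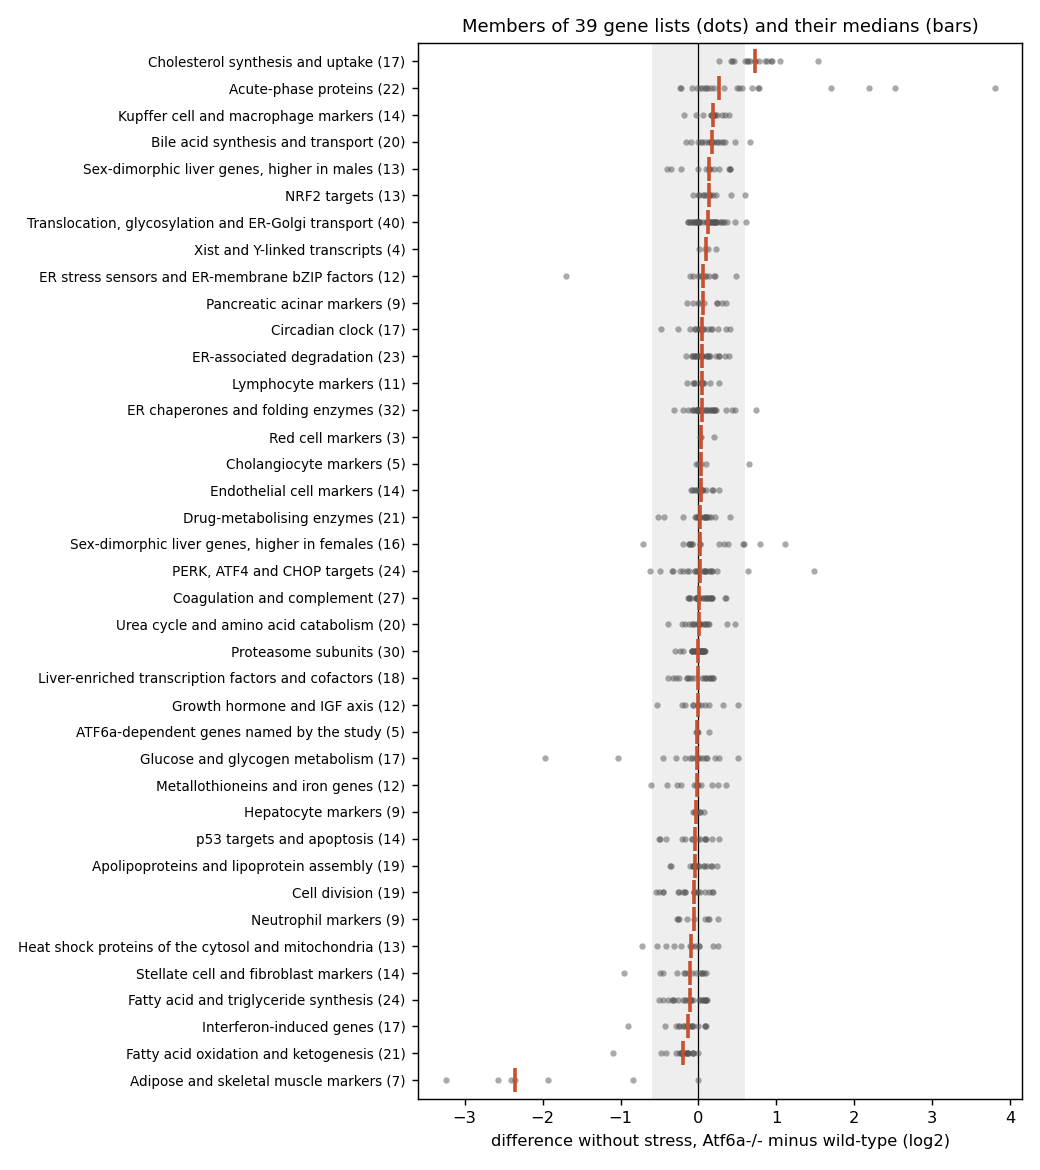
Difference between Atf6a-/- and wild-type vehicle livers (horizontal axis, log2) of every measured member of 39 gene lists (dots, with the number measured in brackets) and the median of each list (vertical bars), ordered by median; the grey band marks 1.5-fold either way. Cholesterol synthesis stands at 0.73 and the adipose and skeletal muscle markers, raised in wild-type animal 2, at -2.36, while the medians of the other 37 lists lie between -0.20 and 0.26.

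Genes next to Atf6 on chromosome 1 were examined because a targeted allele carries its neighbours with it through breeding. Of the 40 measured genes on each side in the RefSeq order, 3 were higher and 1 lower at an unadjusted p under 0.05 (5.0%, beside 2.74% of all genes and 3.2% of the 1056 other measured genes of that chromosome). None passed the adjusted test, and the median difference of the 80 was 0.01. Fcgr3, an Fc receptor of myeloid cells, was at 6.42, 6.60 and 6.53 in wild-type and at 6.81, 6.80 and 6.91 in Atf6a-/- livers (log2), a difference of 0.33 ± 0.13. Slamf6, a lymphocyte receptor, differed by 0.37 ± 0.14 at levels below the array median. Rgs5, a pericyte gene, differed by -0.45 ± 0.19. In the mice given TM, Fcgr3 differed by 0.69 (adjusted p = 0.0021), Slamf6 by -0.07 and Rgs5 by 0.31.

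The mice given TM share no array with the vehicle mice, although the fit shares its spread, so the genotype difference could be read again in other animals. Of 205 genes that were higher in Atf6a-/- vehicle livers at an unadjusted p under 0.05 with no overlap, 45 were also higher with no overlap after TM (22.0%, beside 19.5% of all genes) and 35 were lower with no overlap (17.1%, beside 16.2%). Of 176 that were lower, 27 were lower again (15.3%, beside 16.2%) and 29 were higher (16.5%, beside 19.5%). These shares are near those of all genes. Among genes with a mean of at least 7 in the higher vehicle group, 26 of 64 were higher again (40.6%, beside 30% of the 6709 genes at that level) and 14 of 37 lower again (37.8%, beside 27.8%), as a description.

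Fundc1, a receptor for mitophagy on the outer mitochondrial membrane, was 1 of the genes higher again. Vehicle livers had Fundc1 at 6.74, 6.73 and 6.80 (log2) in wild-type mice and at 8.08, 7.85 and 7.57 in Atf6a-/- mice. After TM it stood at 7.73, 9.05 and 8.38 in wild-type mice and at 9.69, 10.39 and 9.98 in mice labelled Atf6a-/-. The genotypes were apart under both treatments, with differences of 1.08 ± 0.28 (limma unadjusted p = 0.00221, adjusted p = 1.00) and 1.63 ± 0.28 (adjusted p = 0.00123), and the interaction did not pass (adjusted p = 0.497). Jak2, the kinase of the growth hormone and leptin receptors, was at 7.38, 7.41 and 7.58 and at 7.84, 7.71 and 7.76 in vehicle livers (0.31 ± 0.09) and differed by 0.53 ± 0.09 after TM. Hspa13 differed by 0.83 after TM (adjusted p = 0.0149), Srprb by 1.57 (adjusted p = 0.000245) and Atf6b by 0.61 (adjusted p = 0.033). Saa1 was higher in Atf6a-/- mice after TM as well, by 2.34 ± 0.73 (adjusted p = 0.0443), with levels of 9.58, 8.59 and 8.87 and of 11.61, 9.59 and 12.87. Acot1 differed by -2.25 after TM (adjusted p = 0.00672), Noct by -1.05 (adjusted p = 0.0516) and Pex11a by -0.56 (adjusted p = 0.0387). These genes kept their direction, whereas Zfp467 and Zfp39 did not. Both were higher in Atf6a-/- vehicle livers and lower with no overlap after TM. Their differences after TM were -1.56 and -0.70 (limma adjusted p = 9.46e-05 and 0.0097).

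Sterol genes did not keep 1 direction. Sqle and Msmo1 were again above the wild-type range after TM, with genotype differences of 1.52 and 1.09 (adjusted p = 0.0979 and 0.0537). Lss, lanosterol synthase, was 1.65 higher, whereas Stard4, Fdft1, Cyp51 and Insig1 were lower by -1.81, -1.35, -1.18 and -0.82 (adjusted p = 3.19e-05, 0.0011, 0.0176 and 0.00623), and Mvd, mevalonate decarboxylase, by -1.60 (adjusted p = 0.0285). The list's median after TM was -0.21, and the interaction passed for 6 of the 17, Stard4, Fdft1, Insig1, Cyp51, Mvk (mevalonate kinase) and Mvd (adjusted p = 0.00015, 0.00155, 0.00327, 0.00886, 0.0146 and 0.0305).

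The spread within groups, which the fit took from all 4 groups, limited what could be called. In 148 genes (0.813%) the pooled SD within the vehicle groups was over 1 on the log2 scale, with Hsd3b5, Cyp4a12a, Cyp2b9, Cyp2b13, Xist and Elovl3 at the top among genes with a mean of at least 7. Of the within-group sums of squares, wild-type animals 2 and 1 held 22.9% and 22.3%, Atf6a-/- animal 1 held 19.3% and Atf6a-/- animal 2 the least, 9.0%.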

How the data were processed

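Liver RNA of 12 mice, 1 array each, was measured on Affymetrix whole-genome mouse arrays. The deposited table holds log2 expression values per probe set, which the authors made with RMA, and the submitters' processing notes name affy, RMA and limma without versions given in the sources used here. RMA quantile-normalizes arrays to one distribution, so a shift shared by most genes cannot be seen.

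Of 45101 features, 64 control probe sets were left out and 45037 tested. Probe sets were named through the platform annotation, 34945 with 1 symbol, 932 with several and 9160 with none, and a gene was represented by the single-symbol probe set with the highest mean over the 12 arrays (18193 genes). Means of the 4 groups were fitted to all 12 arrays with limma 3.58.1 in R 4.3.3, and the Atf6a-/- vehicle mean was compared with the wild-type vehicle mean. A call needed a Benjamini-Hochberg adjusted p under 0.05 over all probe sets and over 1.5-fold. Groups were called apart where no values overlapped. Tables were made with Python 3.11.15, and the fit was tested on simulated data. The promoter windows and gene order came from RefSeq tables of GRCm38.p6. Nothing says how mice relate to litters or batches, so p-values measure the spread between these samples, whose number limits the precision.

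Genes named were the sensors and regulators of the study, the ATF6a-dependent genes, the 10 smallest p-values, the 5 largest differences each way among genes that were apart at an unadjusted p under 0.05 with a mean of at least 7, the member with the smallest p of each of 39 lists, up to 6 neighbours of Atf6 and the 6 most variable genes. Other genes were named after their values were seen. Members and lists were chosen with earlier results of these data known. Alternatives were other normalizations, a level filter, vehicle arrays only, a replicate block, Xist as covariate, trend and robust moderation, the methods' t-test, the mean of a gene's probe sets, leaving out each array and, chosen after seeing the data, leaving out animals 1 or 2 of both vehicle groups.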

Additional observations from a re-analysis of the deposited data

Results flagged for a closer look

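For 17 of the named genes the genotype difference after TM departed from that after vehicle by the interaction test in limma at an adjusted p under 0.05. The change of the difference (TM minus vehicle, log2) was below 0 for Ppara (-3.70), Cebpa (-2.16) and Ppargc1a (-3.92), regulators of hepatic metabolism. It was below 0 for Pdia4 (-1.94), Dnajb11 (-1.54) and Derl3 (-1.85), of ER folding and degradation. It was also below 0 for Stard4 (-2.47), Ass1 (-1.36), Zfp467 (-2.41), Zfp39 (-1.43), Fam81a (-0.79) and Spry2 (-0.50). It was above 0 for Atf6 (1.75), Cidec (2.69), Col5a2 (1.48), Angptl4 (1.04) and Fcgr4 (0.74). Groups of 3 were not tested for single outlying samples.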

How the results depend on the processing

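Over 27 alternatives Atf6 kept its direction, and 2041 of 2087 values of the other 78 named genes kept their sign. The call of Atf6 was lost, leaving 0 probe sets, with the replicate block on vehicle arrays only (-1.71, adjusted p = 0.0875, 1423 probe sets at an unadjusted p under 0.05), by the methods' t-test (-1.71, adjusted p = 0.664, 1627 probe sets), without animals 1 of both vehicle groups (-1.73, adjusted p = 0.155, 1410 probe sets) and without animals 2 (-1.77, adjusted p = 0.365, 1128 probe sets). Leaving out single arrays gave 0 to 4 calls and Atf6 differences of -1.76 to -1.62 (adjusted p = 0.00192 to 0.0714). There were 0 calls without wild-type vehicle animals 1 or 2 or Atf6a-/- vehicle animals 2 or 3, and fewer samples were then fitted. The replicate block on all 12 arrays left 1 call (adjusted p = 0.0114). Same-numbered animals had deviations correlating at 0.37, 0.18 and 0.07, and wild-type animal 3 correlated best with Atf6a-/- animal 2 (0.22), so the numbers were not taken as pairs. As the mean of its probe sets Atf6 differed by -0.99 (adjusted p = 0.0235). The cholesterol median was 0.31 without animals 1 and 0.50 to 0.90 without single arrays, and the acute-phase median 0.10 (without Atf6a-/- animal 1) to 0.33. Values of the opposite sign were Dnajc3 (0.05) and Uty (-0.02) as the mean of probe sets, and Xbp1 (-0.10), Fgf21 (0.05), Derl3 (-0.23) and Uty (-0.11) without animals 1. Without single arrays, ranges that reached the other sign were -2.12 to 2.62 for Cyp2b13, -2.73 to 2.12 for Cyp2b9, -2.89 to 2.20 for Cyp4a12a, -2.16 to 1.79 for Elovl3, -2.23 to 2.87 for Hsd3b5, -1.91 to 2.36 for Xist, -0.84 to 0.85 for Uty, -0.29 to 0.36 for Derl3, -0.10 to 0.04 for Dnajb11, -0.13 to 0.13 for Dnajc3, -0.19 to 0.12 for Hsp90b1, -0.20 to 0.13 for Hspa5, -0.06 to 0.00 for Pdia4, -0.40 to 0.08 for Fgf21, -0.58 to 0.17 for Ppargc1a, -0.10 to 0.00 for Rbp4 and 0.00 to 0.35 for Xbp1. The cause of these changes was not tested.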
